A study of Mus musculus with 61 samples.

Results

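The mitochondrially encoded respiratory chain genes described here are 9 genes of the mouse mitochondrial chromosome, chosen by name from the table of raw counts: mt-Nd1, mt-Nd2, mt-Nd4, mt-Nd5, mt-Cytb, mt-Co1, mt-Co2, mt-Co3 and mt-Atp6. They are 9 of 55401 gene identifiers in the table, 9 of the 37 genes annotated on that chromosome and 9 of its 13 protein genes. RNA was measured in 61 libraries from GFP-tagged nuclei sorted out of punches of the nucleus accumbens of male mice. All mice carried the Cre-dependent LSL-eGFP::L10a allele, together with D2-Cre (29 libraries) or D1-Cre (32 libraries), so a nucleus was tagged where the driver was active. Mice received morphine or saline over 15 days, spent 30 days in the home cage, and were killed 1 h after a challenge. MM is repeated morphine with a morphine challenge, MS repeated morphine with a saline challenge, SM repeated saline with a morphine challenge and SS repeated saline with a saline challenge. D2 nuclei gave 7 MM, 8 MS, 7 SM and 7 SS libraries, and D1 nuclei gave 7 MM, 9 MS, 8 SM and 8 SS libraries. The dose of each mouse is not given in a form that assigns it, and the labels do not say whether a library pools animals or holds separate animals, so a p-value measures only the spread between these libraries.

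As background, mitochondrial DNA is copied into long RNAs from both of its strands, which are then cut into ribosomal, transfer and messenger RNAs. The messenger RNAs encode core subunits of the respiratory chain: the ND subunits of complex I, cytochrome b of complex III, the CO subunits of complex IV and the ATP6 and ATP8 subunits of the ATP synthase. Complex II has no mitochondrially encoded subunit, and all the other subunits of the chain are encoded in the nucleus. Mitochondria lie in the cytoplasm, so in sorted nuclei these transcripts are often read as a sign of cytoplasmic material carried along. Nuclear DNA also holds copies of stretches of the mitochondrial chromosome, and reads from an identical stretch cannot be placed by sequence alone.

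The libraries held 11518606 to 26108954 counts, with a median of 17924400. The labels of the 2 drivers were checked on the receptor genes: Drd2 had medians of 817.3 CPM (counts per 1000000 counts of the library) in D2 nuclei and 78.1 CPM in D1 nuclei, and Drd1 had 11.1 CPM in D2 nuclei and 57.7 CPM in D1 nuclei. The background level was the density of counts over 1738 receptor genes of smell and pheromone sensing (olfactory and vomeronasal), genes usually silent in brain. Of the cell type markers, 0 of 8 astrocyte, 0 of 9 microglia, 0 of 8 endothelial and 1 of 10 oligodendrocyte markers lay over 2 times this density. Replicate 1 of D1 SS stood apart in the scaling. It had a TMM factor of 0.388 in the fit of both cell types, where the next lowest was 0.812, and a receptor-gene density of 0.0573 CPM per kb, where the median of all libraries was 0.478. Another, replicate 1 of D2 SM, held the highest summed level of the 9 genes. Most results of the 9 genes that rest on either are given with and without it. Counts of signs and medians over other gene lists are given with all libraries only.

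Of the 9 genes, 3 carried almost no counts, and so did the short genes between and beside them. The complex IV genes mt-Co2 and mt-Co3 had medians of 2 counts a library and maxima of 8 and 7. The ATP synthase gene mt-Atp6 had a median of 1 count and a maximum of 7. All 3 lie next to each other, between position 7013 and position 9390 of the mitochondrial chromosome (mm10), and each had fewer than 10 counts in 61 of 61 libraries. mt-Co1, upstream of the stretch, had a median of 212 counts, and mt-Nd4, downstream of it, had 82.

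This stretch has near-identical copies in nuclear DNA. In GENCODE release M21, 7 unprocessed pseudogenes lie in a row on the minus strand of chromosome 1 at chr1:24611535-24616197, and they follow the order of the mitochondrial genes. Gm28661 is 681 bases long and all of them match mt-Co2. Gm10925 matches mt-Atp6 over all of its 678 bases, and Gm28437 matches mt-Co3 over all of its 783 bases. The first 60 bases of mt-Co2 (chrM:7013-7072) and of its nuclear copy (chr1:24615506-24615565, minus strand) are shown because they cannot be told apart. The start codon is in capitals.
mt-Co2: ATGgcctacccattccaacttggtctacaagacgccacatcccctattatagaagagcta
Gm28661: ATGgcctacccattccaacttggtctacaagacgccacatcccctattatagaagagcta
The copy ends inside mt-Nd4, whose first 876 of 1378 bases match Gm28439 and whose remainder has no match there. The 60 bases across that end (chrM:11013-11072) are shown with the bases outside the copy in capitals.
mt-Nd4: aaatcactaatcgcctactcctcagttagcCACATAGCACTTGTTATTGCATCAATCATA
The other end of the row lies in mt-Co1, whose last 479 bases match Gm29216. mt-Co1 also has a copy of the same length, 1545 bases, on chromosome 2, Gm13340, which differs from it at 37 bases and is 97.6% identical. A 60-base stretch of both (chrM:5787-5846, and chr2:22589129-22589188 on the minus strand) is shown with the bases that differ in capitals.
mt-Co1: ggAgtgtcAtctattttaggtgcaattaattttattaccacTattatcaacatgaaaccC
Gm13340: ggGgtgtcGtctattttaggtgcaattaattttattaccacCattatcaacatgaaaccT
By contrast, no stretch of 75 letters of mt-Cytb was found unchanged in an annotated nuclear transcript. Its first 60 bases (chrM:14145-14204, start codon in capitals) are given for comparison.
mt-Cytb: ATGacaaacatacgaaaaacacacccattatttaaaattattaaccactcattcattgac

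Of the 9 genes, the 3 with identical copies had the lowest read densities. Of all windows of 75 letters in mt-Co2, mt-Atp6 and mt-Co3, 99.5%, 99.5% and 99.9% were also found in an annotated nuclear transcript. Their median densities were 0.168, 0.112 and 0.131 CPM per kb, and they lay below the receptor-gene density in 57, 58 and 59 of 61 libraries. The remaining 6 genes stood well above it. The 2 with the most shared windows after those 3 were mt-Nd4 (61.5%) and mt-Co1 (39.8%), with median densities of 3.37 and 7.56 CPM per kb. mt-Nd2, mt-Nd5, mt-Nd1 and mt-Cytb shared 5.7%, 1.7%, 0% and 0% of their windows and had 5.84, 7.28, 5.75 and 6.68 CPM per kb.

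**Figure D1:**
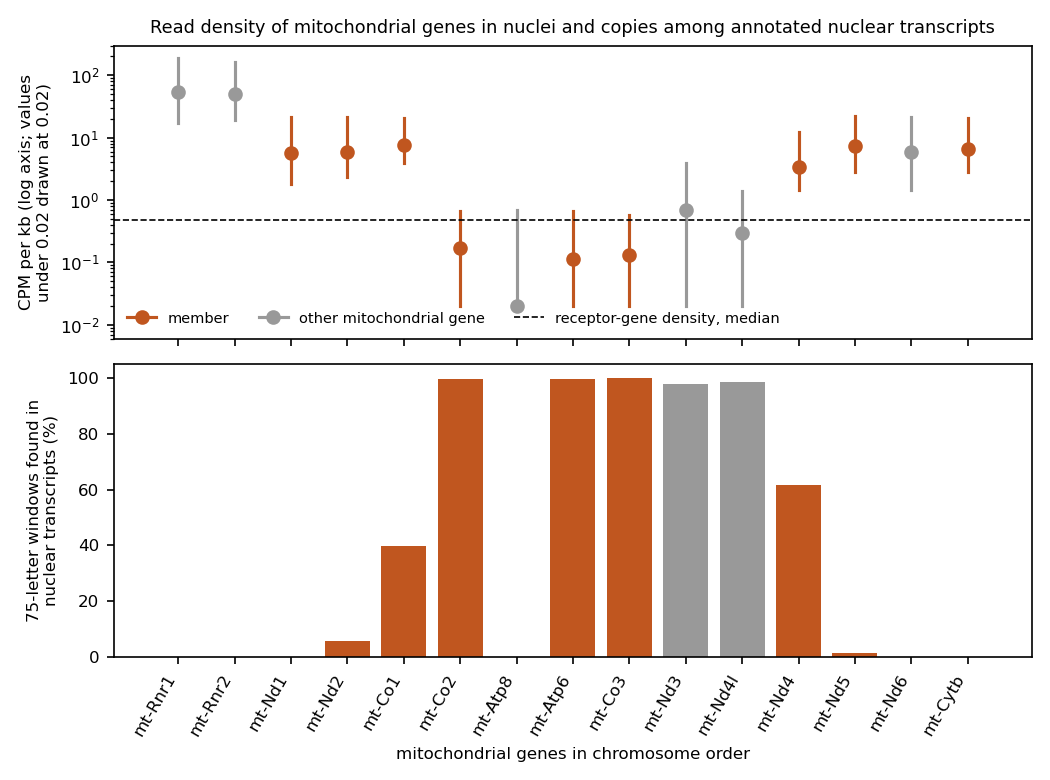
The upper panel plots the median read density over 61 libraries (points, with lines from the lowest to the highest library, log axis) for the ribosomal RNA and protein genes in chromosome order, and the lower panel plots the percentage of 75-letter windows found in annotated nuclear transcripts. mt-Co2, mt-Atp6 and mt-Co3 lie below the dashed receptor-gene density, and each shares over 99% of its windows.

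Of 3 further genes in the stretch, 2 followed the same order, and for 1 the lookup could not tell. mt-Nd3 and mt-Nd4l, complex I genes in the same stretch, shared 97.8% and 98.7% of their windows and had median densities of 0.686 and 0.300 CPM per kb. mt-Atp8, which overlaps the start of mt-Atp6, shared no window with an annotated nuclear transcript and had a median of 0 counts. Its part before mt-Atp6 falls between the parts matched by Gm28661 and Gm10925, whose facing ends are chr1:24614885 and chr1:24614651. A lookup in annotated transcripts cannot show whether that gap holds a copy. The pseudogenes held few counts as well: the medians of the 7 on chromosome 1 were 1 to 6 counts, and that of Gm13340 was 13. How reads that fit several places were handled is not given in the sources used here, and its part in these densities was not tested. The windows were matched against annotated transcripts and not against a whole genome.

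The densities also set the scale of the whole group. The ribosomal RNA genes mt-Rnr1 and mt-Rnr2 had median densities of 53.6 and 50.8 CPM per kb, far above any of the 9. mt-Nd6, the complex I gene encoded on the other strand, which overlaps the end of mt-Nd5, had 5.89 CPM per kb. Together the 9 genes took 0.00263% to 0.0157% of a library's counts, and all 37 mitochondrial genes took 0.00841% to 0.0543%.

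Within the group, the shares were similar from library to library. mt-Nd5 held 27.0% ± 2.69 of the counts of the 9 genes (SD, n = 61 libraries), mt-Co1 23.4% ± 2.61, mt-Cytb 15.7% ± 1.56, mt-Nd2 13% ± 1.5, mt-Nd1 10.8% ± 1.42 and mt-Nd4 9.44% ± 1.26. mt-Co2, mt-Co3 and mt-Atp6 held 0.230%, 0.213% and 0.167% on average. After subtraction of the group means, the log2 levels of the 6 genes above the background correlated with r of 0.866 to 0.939 over the 15 pairs in 61 libraries, and 0.834 to 0.927 without replicate 1 of D2 SM. These correlations are a description, since all genes of a library share its depth and its preparation.

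The summed level of the 9 genes overlapped between all groups. D2 MS had the highest median, with 36.3, 65.6 and 95.8 CPM as its lowest, median and highest library. D1 SM (33.7, 64.1 and 138.1 CPM) and D1 MM (26.3, 63.9 and 101.5 CPM) followed closely. D1 MS (27.8, 53.5 and 74.3 CPM) and D1 SS (28.2, 47.7 and 69.0 CPM) came next. Below them were D2 SM (31.6, 45.9 and 157.1 CPM), D2 MM (27.2, 41.4 and 69.7 CPM) and D2 SS (27.1, 31.3 and 46.7 CPM). No neighbours in this order were apart by more than the range of their libraries, and D2 SS at the low end was the tightest group.

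**Figure D2:**
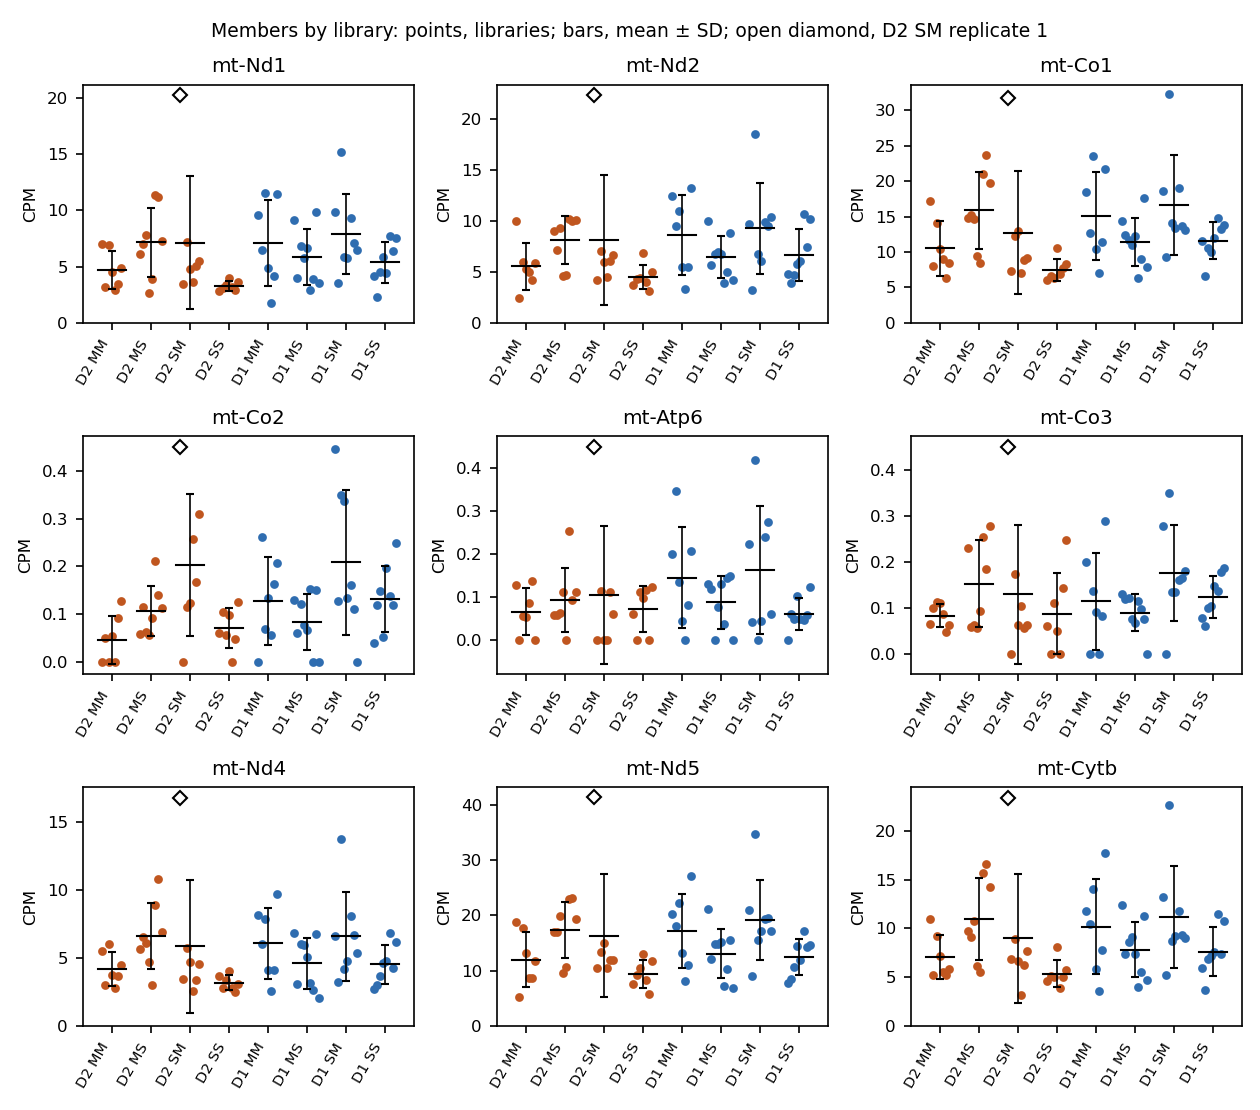
Each panel plots 1 of the 9 genes in CPM, with a point for every library, the mean ± SD of each group, and replicate 1 of D2 SM as an open diamond. Every pair of groups overlaps, the open diamond stands above the other D2 SM libraries for mt-Nd1, mt-Nd2, mt-Nd4, mt-Nd5, mt-Cytb and mt-Co1, and mt-Co2, mt-Co3 and mt-Atp6 stay under 0.5 CPM.

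Replicate 1 of D2 SM set the high end. Its summed level was 157.1 CPM, against 54.8 CPM in the next D2 SM library, and the second highest library of the series was replicate 3 of D1 SM with 138.1 CPM. The composition was not unusual: mt-Co1 held 20.2% of its 2441 counts of the 9 genes (95% exact binomial interval 18.6% to 21.9%, counting error only), and the share of each of the 9 genes fell inside the range of the other 60 libraries. mt-Rnr1 and mt-Rnr2 summed to 198.7 CPM there and to 352.6 CPM in replicate 3 of D1 SM, which gives 0.790 and 0.392 counts of the 9 genes per ribosomal RNA count. The ratio was 0.630 in the next D2 SM library and 0.987 in replicate 7 of D1 SM, the highest of the series. The transfer RNA genes summed to 21.2 CPM in replicate 1 of D2 SM, where the next highest library had 12.5 CPM.

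Over all libraries, the level of the 9 genes followed the mitochondrial ribosomal RNA more closely than the background density. On the log2 scale, the summed level correlated with mt-Rnr1 plus mt-Rnr2 with r = 0.75 and rho = 0.76 over 61 libraries, and with the receptor-gene density with r = 0.07. The number of counts of the 9 genes per ribosomal RNA count, from 0.206 to 0.987, was higher in libraries with a higher receptor-gene density, with r = 0.60 and rho = 0.77. This held in D2 nuclei (r = 0.73) and in D1 nuclei (r = 0.60), and r was 0.71 without the 2 libraries farthest in density. The denominator, mt-Rnr1 plus mt-Rnr2, was itself lower at a higher density, with r = -0.34 and rho = -0.48 (r = -0.58 in D2 and -0.24 in D1 nuclei). The ratio also correlated with the summed nuclear complex I subunits (r = -0.65) and with long RNAs retained in the nucleus (r = -0.64). These are descriptions across libraries that share a protocol, and the part of the background in the ratio was not tested.

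**Figure D3:**
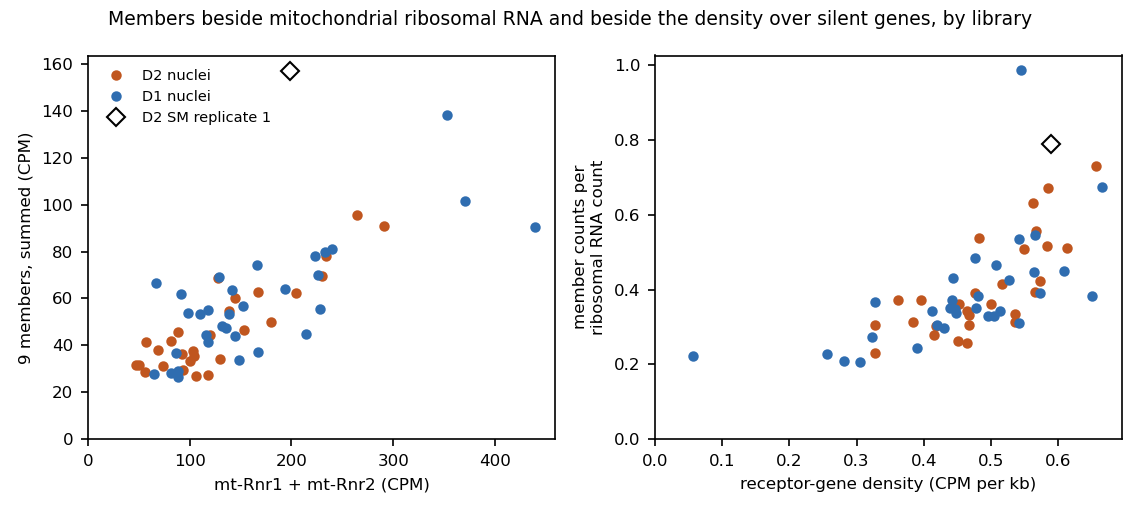
The left panel plots the summed level of the 9 genes (CPM) against that of mt-Rnr1 and mt-Rnr2 (CPM), and the right panel the counts of the 9 genes per ribosomal RNA count against the receptor-gene density (CPM per kb), with 1 point a library. Replicate 1 of D2 SM, the open diamond, has the highest sum of the 9 genes at 198.7 CPM of ribosomal RNA.

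Differences between groups were tested for the 6 genes that passed the filter on low counts: mt-Nd1, mt-Nd2, mt-Nd4, mt-Nd5, mt-Cytb and mt-Co1. mt-Co2, mt-Co3 and mt-Atp6 did not pass it. A fit without the filter gave mt-Co2 an unadjusted p under 0.05 in D2 MM over SM (log2 difference -1.92 ± 0.57), D2 SM over SS (1.45 ± 0.52), the interaction in D2 (-2.67 ± 0.80) and D2 over D1 in MM (-1.41 ± 0.64), and mt-Atp6 in D1 SM over SS (1.27 ± 0.58), with edgeR adjusted p of 0.687 to 1. These rest on at most 8 counts a library, and the fit without the filter was not run without replicate 1 of D2 SM. In the same order, its shares of all genes with an unadjusted p under 0.05 were 6.79%, 3.57%, 3.61%, 5.06% and 2.06%. Fold changes are log2 values from edgeR's quasi-likelihood fit with the standard error (SE), and a gene was called at a Benjamini-Hochberg adjusted p under 0.05 over all genes tested. In all 20 comparisons, 0 of the 6 were called by this fit. In bulk libraries such as these, fewer nuclei of a type and less RNA per nucleus cannot be told apart.

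Repeated morphine with a saline challenge gave the largest difference from SS, in D2 nuclei. All 6 genes had higher levels in D2 MS than in D2 SS, by 1.00 to 1.28 on the log2 scale, but none passed the adjusted threshold. The edgeR fit called 0 of 41125 genes in this comparison (0%), and 32% of all genes had an unadjusted p under 0.05, as did 6 of the 6. The median log2 difference over all genes was -0.05.

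Among the complex I genes, mt-Nd1 had 2.65, 7.13 and 11.4 CPM as lowest, median and highest library in D2 MS, and 2.86, 3.22 and 3.97 CPM in D2 SS. Of the 8 MS libraries, 6 lay above all 7 SS libraries and 1 lay below them all. The log2 difference was 1.28 ± 0.36 (SE), with an edgeR adjusted p of 0.0713. mt-Nd2 had 4.63, 9.18 and 10.2 CPM in D2 MS and 3.13, 4.31 and 6.83 CPM in D2 SS, a difference of 1.00 ± 0.33 (edgeR adjusted p = 0.0715). For mt-Nd2, all 8 MS libraries lay above the SS median. mt-Nd4 had 3.0, 6.31 and 10.8 CPM in D2 MS and 2.46, 3.1 and 4.07 CPM in D2 SS, where 7 of the 8 MS libraries lay above all SS libraries, and its difference was 1.21 ± 0.34. The lowest MS library of mt-Nd1, mt-Nd2 and mt-Nd5 was the same one, replicate 4. mt-Nd5 had 9.66, 18.2 and 23.1 CPM in D2 MS and 5.69, 9.30 and 13 CPM in D2 SS, a difference of 1.04 ± 0.32.

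The complex III gene and mt-Co1, the tested gene of complex IV, differed by like amounts. mt-Cytb, which encodes cytochrome b, had 5.50, 10.2 and 16.6 CPM in D2 MS and 3.92, 5.05 and 8.14 CPM in D2 SS (log2 difference 1.17 ± 0.33). mt-Co1, which encodes the catalytic subunit of complex IV, had 8.5, 15.0 and 23.8 CPM in D2 MS and 6.02, 6.91 and 10.5 CPM in D2 SS. For both genes 6 of the 8 MS libraries lay above all SS libraries, and all 8 lay above the SS median. The difference of mt-Co1 was 1.23 ± 0.31, with the smallest unadjusted p of the 6 (0.000543) and an edgeR adjusted p of 0.0713.

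Whether these genes were called in D2 MS over SS depended on the tool and on single libraries. DESeq2 called 6 of 6, in a comparison in which it called 19.8% of all genes, and limma voom called 0 of 6. Without replicate 4, 5 or 8 of D2 MS, edgeR called 6, 6 and 5 of 6, where it called 20.7%, 6.74% and 18.5% of all genes. Replicate 1 of D2 SM is in neither group but shares the filter, the scaling and the estimate of spread. With it left out, the differences were 1.02 to 1.30 and the smallest edgeR adjusted p was 0.0889.

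Of the 28 other genes of the mitochondrial chromosome, 4 passed the filter, and all 4 had positive differences in D2 MS over SS. The fit called no gene in this comparison. mt-Rnr1 and mt-Rnr2 differed by 1.17 ± 0.35 and 1.14 ± 0.37 on the log2 scale, mt-Nd6 by 1.05 ± 0.38 and the transfer RNA gene mt-Tv by 1.09 ± 0.33. Of the nuclear-encoded subunits tested, 36 of 36 for complex I (median 0.37) and 4 of 4 for complex II (0.29) had positive differences. So had 9 of 9 for complex III (0.50) and 10 of 10 for complex IV (0.41). For the ATP synthase, 16 of 16 gene identifiers, from 15 gene symbols, had positive differences (0.45). The largest value of each list was 0.84 ± 0.27 for Ndufb10 (complex I), 0.50 ± 0.14 for Sdha (complex II), 0.74 ± 0.25 for Cyc1 (complex III), 0.68 ± 0.24 for Cox7b (complex IV) and 0.77 ± 0.27 for Atp5d (ATP synthase). Of the genes for mitochondrial transcription and RNA processing, 27 of 30 were positive and 3 negative (median 0.31), with the largest value for Fastk (0.75 ± 0.33). Of the nuclear regulators of mitochondrial biogenesis, 9 of 11 were positive and 2 negative (median 0.23), with the largest value for Esrra (0.59 ± 0.20), a nuclear receptor that acts on genes of oxidative metabolism. Cytosolic ribosomal protein genes (28 of 28, median 0.42), long RNAs retained in the nucleus (9 of 9, median 1.08) and markers of striatal projection neurons (8 of 8, median 0.75) did too. The single nuclear pseudogene that passed the filter, Gm13340, differed by 0.07 ± 0.17.

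Some technical measures moved with the same comparison. The receptor-gene density had medians of 0.465 CPM per kb in D2 MS and 0.536 CPM per kb in D2 SS. Markers of endothelial cells summed to 223.4 to 356.8 CPM in D2 MS and 330.1 to 394.5 CPM in D2 SS, with 7 of 8 lower, and those of microglia to 126.6 to 183.3 CPM and 171.4 to 200.6 CPM, with 7 of 9 lower. No endothelial or microglia marker reached 2 times the receptor-gene density, and 2 endothelial markers lay below it. Their part in the differences was not tested. With the log2 receptor-gene density as a covariate, the 6 differences had a median of 1.10 and a smallest adjusted p of 0.300.

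A morphine challenge after saline gave differences in D2 nuclei whose size depended much on 1 library. In D2 SM over SS the 6 genes were higher by 0.74 to 1.12 (edgeR adjusted p of 1), where 0% of all genes were called. An unadjusted p under 0.05 was found for 6 of the 6 and for 3.24% of all genes, and for 0 of the 6 without replicate 1 of D2 SM (2.42% of all genes). mt-Nd1 had the largest value, 1.12 ± 0.38, with 3.48, 5.07 and 20.2 CPM in D2 SM and 2.86, 3.22 and 3.97 CPM in D2 SS. With that library left out the differences were 0.27 to 0.57, and the highest D2 SM library for mt-Nd1 had 7.19 CPM. mt-Nd5 had 10.4, 11.9 and 41.3 CPM in D2 SM, with 14.9 CPM as the highest of the other 6 libraries, and its difference of 0.80 ± 0.32 was 0.36 ± 0.26 without it.

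A morphine challenge after morphine left the 6 genes between D2 MS and D2 SS. In D2 MM over SS they were higher by 0.38 to 0.60 (edgeR adjusted p of 0.403 to 0.582, 0% of all genes called), and the unadjusted p was under 0.05 for 0 of the 6 and 13.3% of all genes. In D2 MM over MS they were lower, by -0.73 for mt-Nd4 to -0.61 for mt-Nd5, with SE of 0.30 to 0.35 and an adjusted p of 0.973 (0% called), and the unadjusted p was under 0.05 for 3 of the 6 and 3.76% of all genes. Leaving out replicate 1 of D2 SM gave an unadjusted p under 0.05 for 6 of the 6 in MM over MS and 2 of the 6 in MM over SS, with values of -0.73 to -0.61 and 0.39 to 0.61. The shares of all genes were then 3.41% and 13.3%. mt-Co1 had 6.33, 8.95 and 17.3 CPM in D2 MM and 8.5, 15.0 and 23.8 CPM in D2 MS, with 1 of 7 MM libraries above the MS median. In D2 MM over SM the 6 differences were -0.52 to -0.18 with all libraries and 0.04 to 0.26 without replicate 1 of D2 SM, so that leaving out that library changed their sign. The unadjusted p was under 0.05 for 0 of the 6 and 7.73% of all genes in that comparison.

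The challenge and the history were also compared as an interaction, the effect of the challenge after morphine (MM over MS) minus its effect after saline (SM over SS). In D2 nuclei all 6 values were negative, -1.80 to -1.41 with SE of 0.44 to 0.51, unadjusted p of 0.00167 to 0.0051 and an edgeR adjusted p of 0.991. For all genes 0% were called and 3.56% had an unadjusted p under 0.05, as had 6 of the 6. With replicate 1 of D2 SM left out the values were -1.26 to -0.95, with an adjusted p of 1.00.

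**Figure D4:**
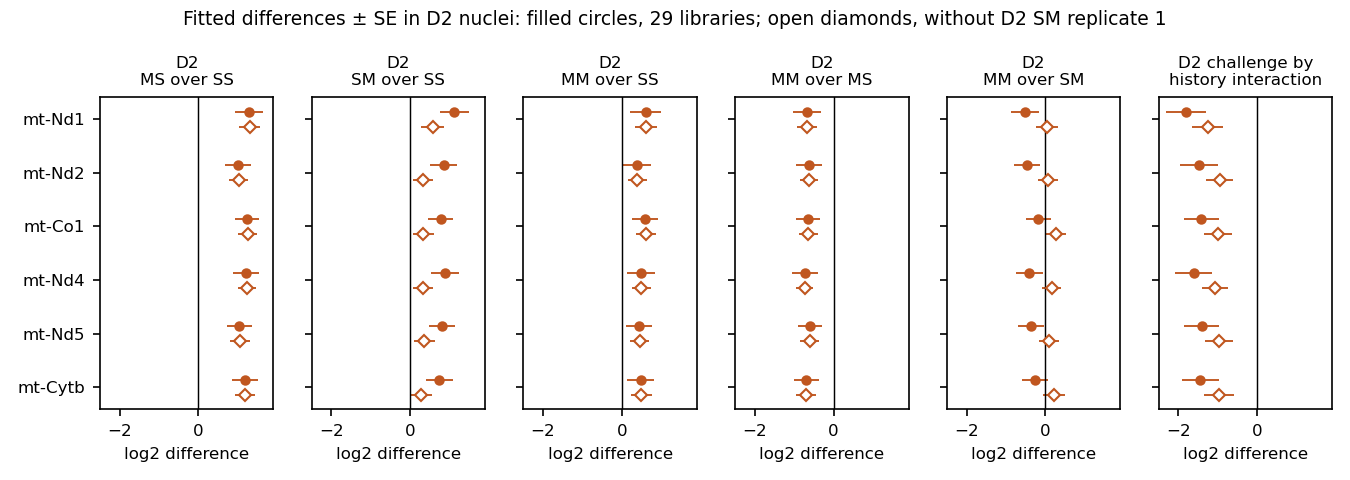
The 6 panels plot log2 differences ± SE of the 6 tested genes in D2 nuclei, with all 29 libraries as filled circles and without replicate 1 of D2 SM as open diamonds. D2 MS over SS lies at 1.00 to 1.28 with all libraries and at 1.02 to 1.30 without that one, D2 SM over SS is smaller without that library, and D2 MM over SM changes its sign.

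In D1 nuclei none of the 6 genes was called, with 0% of 41083 genes called in each of the 6 comparisons. An unadjusted p under 0.05 was found for 1 of the 6 in D1 MM over MS (2.29% of all genes). In the other 5 it was found for 0 of the 6, where the share of all genes was 1.87% in SM over SS, 1.92% in MM over SS, 2.68% in MS over SS, 1.34% in MM over SM and 2.32% in the interaction. With replicate 1 of D1 SS left out it was found for 2 of the 6 in MM over MS, 2 in SM over SS and 0 in the other 4. The shares of all genes were then 4.92% in MM over MS and 1.28% in SM over SS. In the other 4 they were 5.68% in MM over SS, 1.1% in MS over SS, 2.87% in MM over SM and 1.53% in the interaction. D1 SM over SS gave 0.29 to 0.47 (edgeR adjusted p of 0.955), and D1 MM over SS 0.28 to 0.44 (adjusted p of 1). Leaving out replicate 1 of D1 SS gave 0.42 to 0.56 and 0.46 to 0.54 in these comparisons. mt-Nd5, the highest in both, had 9.06, 18.2 and 34.7 CPM in D1 SM, 8.03, 18.1 and 27.1 CPM in D1 MM and 7.80, 13.1 and 17.1 CPM in D1 SS. Of its 8 D1 SM libraries, 6 lay above all 8 SS libraries, and the 95% interval of its D1 SM difference ran from -0.02 to 0.96. The nuclear-encoded complex I subunits had the other sign in D1 SM over SS, with 34 of 36 negative, a median of -0.23 and 0 called. Their sum in replicate 1 of D1 SS, 585.8 CPM, was the highest of that group, and the list was not summarised without that library. Without replicate 3 of D1 SM, the median of the 6 D1 SM differences was 0.17, against 0.37 with all libraries.

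Repeated morphine with a saline challenge gave differences near 0 in D1 nuclei. D1 MS over SS gave -0.26 to -0.08, and the interval of mt-Co1 ran from -0.79 to 0.28. The values were -0.10 to 0.06 without replicate 1 of D1 SS, with 2 of 6 positive, and -0.06 to 0.11 under total count scaling, with 4 of 6 positive. D1 MM over MS gave 0.45 to 0.56 (edgeR adjusted p of 0.988), D1 MM over SM -0.03 to 0.04 and the interaction 0.06 to 0.26. mt-Co1 had 7.09, 12.7 and 23.5 CPM in D1 MM and 6.32, 11.7 and 17.6 CPM in D1 MS, with overlapping groups.

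The response to MS was set against that of D1 nuclei directly. The difference between D2 and D1 in MS over SS was positive for all 6 genes, 1.15 for mt-Nd5 to 1.51 for mt-Co1, with SE of 0.40 to 0.49 and an edgeR adjusted p of 0.149. mt-Nd2 had 1.25 ± 0.44, mt-Cytb 1.35 ± 0.45, mt-Nd4 1.37 ± 0.44 and mt-Nd1 1.39 ± 0.49. In this comparison 0% of 42870 genes were called, and 24.7% had an unadjusted p under 0.05, as had 6 of the 6. DESeq2 called 6 of 6 and 16.2% of all genes, and edgeR called 4 of 6 without replicate 2 of D1 MS (11.8% of all genes). With replicate 1 of D1 SS left out the 6 values were 1.05 to 1.29, with a smallest adjusted p of 0.647, and 5.97% of all genes had an unadjusted p under 0.05. The same difference for SM over SS was 0.35 to 0.76 with all libraries and -0.11 to 0.20 without replicate 1 of D2 SM, and for MM over SS it was 0.01 to 0.33. In both, 0% of genes were called, and the unadjusted p was under 0.05 for 0 of the 6 (2.46% and 6.74% of all genes). Without replicate 1 of D1 SS those shares of all genes were 2.32% and 4.82%. When each library was left out in turn, the median of the 6 was -0.01 to 0.70 for SM over SS. For MM over SS it was -0.04 to 0.32. Both differences share the SS libraries with the ones above.

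In SS the 6 genes had lower levels in D2 nuclei than in D1 nuclei, and none passed the adjusted threshold. The 6 differences were -0.95 for mt-Nd1 to -0.62 for mt-Nd5, with edgeR adjusted p of 0.0984 to 0.154, while 0.0467% of all genes were called and 27.9% had an unadjusted p under 0.05, as had 6 of the 6. mt-Co1 had 6.02, 6.91 and 10.5 CPM in D2 SS and 6.62, 11.8 and 14.8 CPM in D1 SS, with 3 of 7 D2 libraries below all D1 libraries and 0 of 7 above the D1 median. Its difference was -0.93 ± 0.31. mt-Nd2 differed by -0.80 ± 0.32, mt-Cytb by -0.75 ± 0.33 and mt-Nd4 by -0.72 ± 0.33, so the 6 genes were alike in direction and size.

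The call again depended on the method. DESeq2 called 6 of 6 and 24.3% of all genes, and edgeR with RLE scaling called 3 of 6 and 19.2% of all genes. Without replicate 2 or 7 of D1 SS, edgeR called 2 and 1 of 6 (14.1% and 16.8% of all genes). Without replicate 1 of D1 SS the differences had a median of -0.66, with a smallest adjusted p of 0.924, and the unadjusted p was under 0.05 for 3 of the 6 and 3.57% of all genes. With all libraries, nuclear-encoded complex I subunits were lower in D2 SS as well, 36 of 36, with a median of -0.53 and 0 called. So were 9 of 9 long RNAs retained in the nucleus, with a median of -1.61. Neither list was summarised without replicate 1 of D1 SS.

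Markers of other neurons were looked at in the same comparison. Of 7 markers of cortical glutamatergic neurons, 6 were lower in D2 SS than in D1 SS and 1 was called, Slc17a7, which encodes a vesicular glutamate transporter (-2.44 ± 0.50, edgeR adjusted p = 0.0230). Without replicate 1 of D1 SS its difference was -0.48 ± 0.27 (edgeR adjusted p = 0.924). The 7 markers summed to 157.9 to 197.4 CPM in D2 SS and 114.8 to 312.3 CPM in D1 SS, where replicate 1 was the highest. The 9 markers of striatal interneurons, 3 of them lower in D2 SS and 0 called, summed to 257.4 to 313.6 CPM in D2 SS and 114.4 to 336.4 CPM in D1 SS, where replicate 1 was the lowest. No marker of either list was without counts. Of the cortical glutamatergic markers, 0 of 7 lay over 2 times the receptor-gene density, the highest being Slc17a7 at 1.88 times. Of the interneuron markers, 2 of 9 lay over 2 times that density and 1 lay below it. The part of these markers in the differences was not tested.

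The sign differed between treatments. In MS the 6 genes were higher in D2 nuclei by 0.43 to 0.64 (edgeR adjusted p of 0.999, 0.0746% of all genes called). In MM they differed by -0.73 to -0.60 (adjusted p of 0.967 to 0.980, 0.056% called). In SM they differed by -0.44 to -0.20 with all libraries and -0.88 to -0.73 without replicate 1 of D2 SM (0.0303% called with all libraries). Averaged over the 4 treatments, the differences were -0.36 to -0.23 (adjusted p of 0.397 to 0.475, 0.301% called), and -0.50 to -0.36 without that library. Their median was -0.31 with all libraries and -0.43 to -0.25 when each of the 61 was left out in turn. The unadjusted p was under 0.05 for 2 of the 6 in MS, 2 in MM, 0 in SM and 3 in the average, where it was so for 2%, 4.89%, 2.16% and 12.2% of all genes. Without replicate 1 of D2 SM it was so for 4 in MS, 6 in MM, 6 in SM and 6 in the average. The shares of all genes were then 2.01%, 4.88%, 1.92% and 11.8%. Without replicate 1 of D1 SS the share of all genes in the average was 6.81%. Among the 7 cortical glutamatergic and 9 interneuron markers, only Slc17a7, Sst and Npy were called in the average, all lower in D2 nuclei. Their differences were -1.01 ± 0.24, -1.27 ± 0.20 and -0.45 ± 0.08, with edgeR adjusted p of 0.0352, 5.55e-05 and 0.00103. Sst and Npy encode interneuron neuropeptides. The signs of the other markers in the average are not given here, so these genes do not stand for their lists. Sst and Npy were called without replicate 1 of D2 SM and without replicate 1 of D1 SS, and Slc17a7 was called in neither case (adjusted p of 0.0544 and 0.0601).

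**Figure D5:**
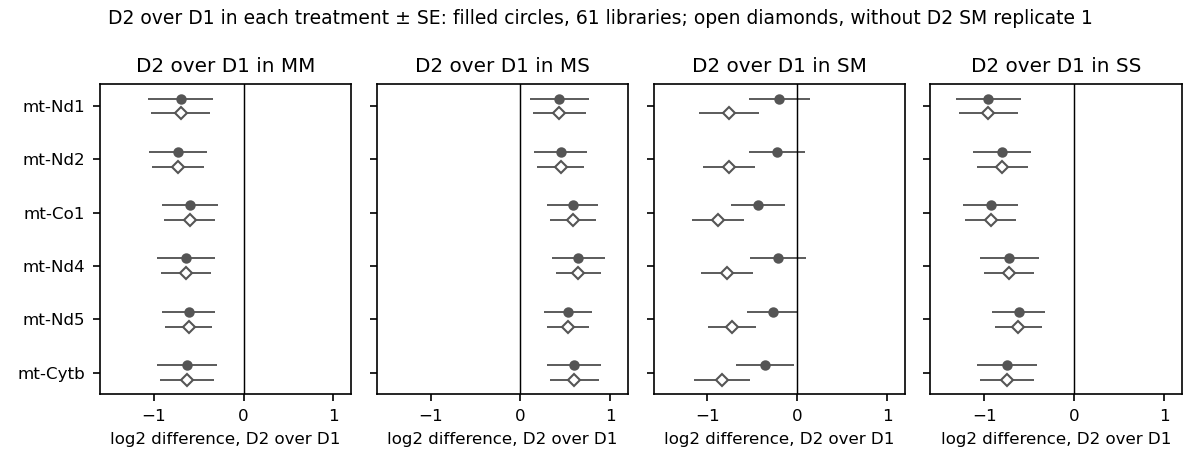
The 4 panels plot log2 differences ± SE, D2 over D1, of the 6 tested genes within each treatment, with all 61 libraries as filled circles and without replicate 1 of D2 SM as open diamonds. The values are negative in MM, SM and SS and positive in MS, and those in SM are lower without that library.

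Genes of other chromosomes were ranked by the likeness of their pattern to that of the 9. The measure was Pearson's r with log2 of the summed level over the 61 libraries, after subtraction of group means. Ranked were 27068 genes whose mean TMM-scaled CPM was at least 1 on the log2 scale. The first 5 were Gm17259 (0.618), Ccnb1ip1 (0.591), 1700066M21Rik (0.574), Trmt10c (0.562) and Ccng1 (0.537). Trmt10c encodes a subunit of the mitochondrial RNase P, which cuts transfer RNAs out of mitochondrial transcripts. The first 5 without replicate 1 of D2 SM were Gm17259 (0.610), Ccnb1ip1 (0.608), 4930430F08Rik (0.570), Yeats4 (0.566) and Rps16 (0.553). For comparison, 3 mitochondrial genes that are not among the 9 had higher values over 61 libraries, 0.877 for mt-Nd6, 0.726 for mt-Rnr1 and 0.683 for mt-Rnr2.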

How the data were processed

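Nuclear RNA of 61 libraries was analysed. Per the labels' protocols, fluorescent nuclei were sorted, and a kit for low-input total RNA that keeps strand made the libraries. Per the submitters' processing notes, featureCounts, DESeq2 and the build mm10 were used. The aligner, the strand setting and the treatment of reads that fit several places were not given in the sources used here. Raw counts for each gene were deposited by the authors and used as they are. The authors also deposited FPKM values, used here only to recover gene lengths, and for 54798 of 55072 identifiers the length equalled the gene span in GENCODE M21 within a relative tolerance of 0.001. Symbols were found for 55141 of 55401 identifiers.

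Counts were fitted with edgeR 4.0.16 in R 4.3.3 (TMM scaling, filterByExpr by group, robust quasi-likelihood, two-sided tests), 41083 genes in 32 D1 libraries, 41125 in 29 D2 libraries and 42870 in both together. Genes were called at an adjusted p under 0.05 (Benjamini-Hochberg over all genes). The script was tested on simulated data. Intervals of differences are the estimate ± 1.96 SE. CPM are counts per 1000000 counts of the library, unscaled, and CPM per kb divides them by gene length. The correlations use log2 CPM, with 0.1 added for single genes. Windows of 75 letters of each mitochondrial transcript were looked up in all other GENCODE M21 transcripts. The alternatives were RLE and total count scaling, DESeq2 1.42.0, limma 3.58.1 voom, no filter, a replicate block, the receptor-gene density as a covariate, and leaving out libraries. The 9 genes are given in every comparison, with values where a setting called one or where its difference was the largest or smallest. Of other lists, called genes or the largest difference are named where a list is described, and of the D1 and D2 neuron markers only Drd1 and Drd2 are given. The members and lists were chosen with earlier results of these data known. No dose is reported, since the labels do not assign one to each mouse.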

Additional observations from a re-analysis of the deposited data

Results flagged for a closer look

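In each group, the highest and lowest library were checked by their gap to the nearest other library, divided by the range of the group, against Dixon's 95% critical value. Of 96 sets of values tested, 18 held a library that stood apart in this sense. Chance gives about 1 in 20 groups, and the sets are not independent, since the genes of a library move together.

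Replicate 1 of D2 SM was the highest library of its group for mt-Nd5 (gap over range 0.854), mt-Nd2 (0.843), mt-Nd1 (0.778), mt-Nd4 (0.777), mt-Co1 (0.761), mt-Cytb (0.715), mt-Atp6 (0.745), mt-Co3 (0.617) and the sum of the 9 genes (0.816). The sum was 157.1 CPM there and 54.8 CPM in the next library. For mt-Atp6 and mt-Co3 the value rests on 7 counts. Replicate 3 of D1 SM was the highest of its group for mt-Co1 (0.577), mt-Cytb (0.541), mt-Nd4 (0.538), mt-Nd5 (0.534), mt-Nd2 (0.531) and the sum (0.557), with 138.1 CPM, against 79.9 CPM in the next library. Replicate 6 of D2 MS was the highest of its group for mt-Atp6 (0.556) and replicate 9 of D1 MS the lowest for mt-Co3 (0.505), both at a few counts or none. Replicate 3 of D2 MS had 0.539 counts of the 9 genes per ribosomal RNA count, where the next library of that group had 0.391 (0.628).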

How the results depend on the processing

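Of the 20 comparisons, the count of the 6 tested genes called stayed at 0 under total count scaling, limma voom, no filter on low counts, the receptor-gene covariate, and without replicate 1 of D2 SM, replicate 1 of D1 SS or both. DESeq2 called 6 in D2 MS over SS, 6 in D2 over D1 in SS and 6 in the difference between D2 and D1 in MS over SS, and 0 in the other comparisons, and RLE scaling called 3 in D2 over D1 in SS. Leaving out each library in turn, chosen after seeing the data, gave 0 to 6 calls in D2 MS over SS, 0 to 2 in D2 over D1 in SS, 0 to 4 in that difference and 0 elsewhere. The cause was not tested. Fitted with the replicate number as a block, D2 MS over SS had 6 calls (20.9% of all genes) and the other comparisons 0. Whether the numbers pair the libraries was not settled. Of 42 same-numbered pairs in D2, 16 had a correlation of deviations over 0.1, as did 98 of 273 pairs with different numbers. In D1 these were 14 of 45 and 120 of 338. Best correlations were with a library of their own number for 6 of 29 D2 and 7 of 32 D1 libraries. With replicate 1 of D2 SM left out, D2 MM over SM changed its sign for all 6 genes: mt-Co1 0.26, mt-Cytb 0.22, mt-Nd1 0.042, mt-Nd2 0.0668, mt-Nd4 0.16 and mt-Nd5 0.0907 on the log2 scale. Medians of 1 to 2 counts limit what can be detected for mt-Co2, mt-Co3 and mt-Atp6.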
